A study of Homo sapiens with 8 samples.

Results

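The anaphase-promoting complex is a large ubiquitin ligase that marks securin and mitotic cyclins for destruction, so that sister chromatids separate and cells leave mitosis. Its subunits form a platform, an arm of proteins with tetratricopeptide (TPR) repeats that holds the coactivator, and a catalytic pair of a cullin-like and a RING protein. CDC20 is the coactivator that brings in substrates in mitosis, and the spindle checkpoint holds it back until all chromosomes are attached. The genes described here are 9 subunits (CDC23, CDC16, CDC27, ANAPC2, ANAPC4, ANAPC5, ANAPC7, ANAPC10 and ANAPC11) and CDC20. All 10 were found in the deposited table by gene symbol, with 11 of its 20589 probes, since ANAPC11 has 2. In all, the table names 18190 genes. The genes were selected on their intensities in outer against inner cells, the contrast described below. Their differences are therefore given as descriptions and support nothing by themselves.

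The samples came from MCF10A-5E, a clone of the MCF10A line of immortalised, non-tumorigenic human breast epithelial cells. The cells were grown on Matrigel, a basement membrane extract, in medium with EGF, horse serum, hydrocortisone, cholera toxin and insulin, where they form spheres called acini. At day 6, about 50 outer cells attached to the matrix, or about 50 inner cells without that contact, were cut per sample from 8 µm sections by laser microdissection. Both groups shared the clone, medium, day and poly(A) PCR amplification, and the comparison asks how expression differs with the position of a cell in the acinus. There were 4 outer and 4 inner samples, each on 1 Illumina HumanRef-8 array. Amplification in quadruplicate is what the design states, and nothing ties the samples to separate cultures, so the spread between them may be technical and p-values measure that spread alone. In such samples fewer cells of a kind and less RNA per cell cannot be told apart.

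Detected probes, those with a detection p below 0.01, numbered 6429 to 7000 on an array, and mean raw intensity ran from 344 to 533. Of 10 epithelial markers 8 were tested, among them KRT5, KRT14, TP63 and CDH3, each detected on all 8 arrays, while KRT6A and CDH1 were detected on none. None of 4 endothelial markers was detected on any array. Of 6 fibroblast markers DCN was detected on all 8 arrays and COL1A2 on 4 outer and 2 inner arrays. COL3A1 was detected on 1 outer and 1 inner array, COL1A1 on 1 inner array, and LUM and PDGFRA on none. The summed raw intensity of the fibroblast list was 1453 to 4444 on outer and 1428 to 4661 on inner arrays. DCN alone ran from 1202 to 4465 over the 8 arrays. The sum of 5 leukocyte markers was 221 to 465 on outer and 286 to 504 on inner arrays. CD68, a lysosomal protein not restricted to leukocytes, was detected on all 8 arrays, CD14 on 3 inner arrays, PTPRC on 1 outer array, and LYZ and CD3E on none. Over all 6698 tested probes, limma gave 1 probe higher and 3 lower in outer cells at an adjusted p below 0.05, which is 0.0597% of them (0.0149% counting higher alone). With the background estimated from all probes it gave 1, or 0.0149%. The 4 belong to GADD45A, FLJ38482, ZNF616 and FABP4, named after their values were seen, and none is a gene of the complex.

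Most of the complex was well measured. Of its 11 probes 7 were detected on all 8 arrays, against 20.3% of all probes, and 8 reached the minimum of 4 arrays needed for the test, against 32.5%. The 7 belong to CDC23, CDC16, ANAPC4, ANAPC5, ANAPC10, CDC20 and 1 probe of ANAPC11. ANAPC7 reached the minimum with 3 outer arrays and 1 inner array. The probes for CDC27 and ANAPC2 and the other ANAPC11 probe stayed below it. Raw bead intensities, in arbitrary units without background subtraction, are given per array for the genes below. Levels are compared between arrays for 1 probe at a time, never between probes.

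**Figure D1:**
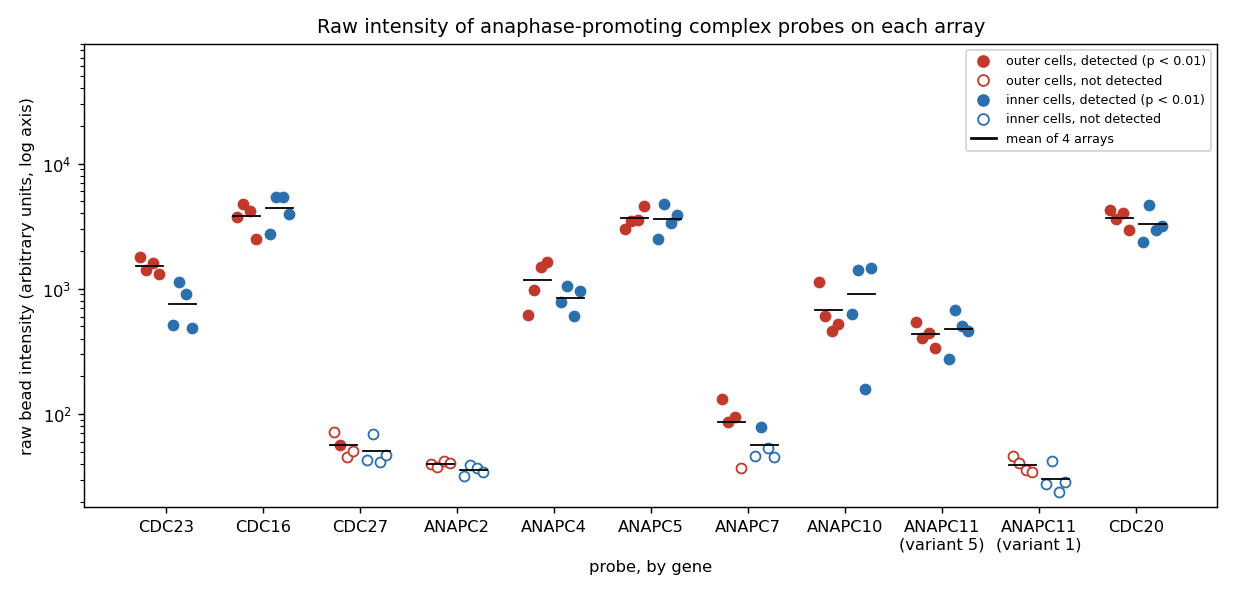
Raw bead intensity (log axis, arbitrary units) of the 11 probes on each array. Red points are the 4 outer and blue points the 4 inner arrays, filled where the probe had a detection p below 0.01, with bars at the mean of 4 arrays. CDC23 is the detected probe whose outer points, 1305 to 1791, all lie above its inner points, 489 to 1128.

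Among the 8 tested genes the groups did not overlap in CDC23 and overlapped in the other 7, on the contrast the genes were listed on. Outer minus inner was positive for CDC23, ANAPC7, ANAPC4 and CDC20 and negative for ANAPC5, ANAPC10, ANAPC11 and CDC16, against 50.6% positive among all tested probes. The median log2 difference of the 8 was 0.05, and that of all tested probes was 0.01. With limma 0 of the 8 passed the adjusted threshold, with adjusted p from 0.307 to 0.992, against 0.0597% of all tested probes. At an unadjusted p below 0.05 there was 1, CDC23, against 8.05% of all tested probes, or 4.06% counting higher alone. CDC23 was also the 1 gene with a log2 difference of at least 1 upward, against 9.78% of probes, and the 1 whose groups did not overlap with outer higher, against 2.57% (5.26% in either direction). These counts come from the contrast the genes were listed on, and nothing is read from them.

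CDC23, a TPR subunit at the base of the arm, had raw intensities of 1791, 1420, 1593 and 1305 on outer replicates 1 to 4. On inner replicates 1 to 4 they were 511, 1128, 907 and 489. Every outer array was above every inner array, and the outer arrays lay close together. In these raw values the inner arrays fell into a higher pair, replicates 2 and 3, and a lower pair. Replicates 2 and 3 also had the highest mean raw intensity of the inner arrays, 533 and 447. The lower pair did not remain after normalization. There inner replicate 1, at a log2 intensity of 9.39, lay nearer replicate 3, at 9.69, than replicate 4, the lowest. After background correction and quantile normalization the log2 intensity of CDC23 averaged 10.51 ± 0.11 over the outer and 9.47 ± 0.35 over the inner arrays (SD, n = 4). That is a log2 difference of 1.05 (standard error 0.24, 95% interval 0.49 to 1.60), or 2.07-fold. It ranked 57th among 6698 probes by p and 1178th by size, and its limma adjusted p was 0.307 (0.181 to 0.607 over 16 other settings). With 1 array left out the log2 difference was lowest at 0.89, without inner replicate 4, and highest at 1.16, without inner replicate 2. The beads of the probe, 32 to 52 per array, gave a standard error of 3.40% to 8.08% of its intensity.

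The groups of the other TPR subunits overlapped, but ANAPC7 and CDC27, described below, were too near the detection limit for a separation to be judged. CDC16, which pairs with CDC23 in the arm, had raw intensities of 3743, 4750, 4207 and 2479 on outer and 2739, 5420, 5415 and 3987 on inner replicates 1 to 4. The groups overlapped, and the lowest value was on outer replicate 4. Its log2 intensity averaged 11.80 ± 0.40 over the outer and 12.08 ± 0.26 over the inner arrays (SD, n = 4), a difference of -0.28 with a 95% interval of -0.91 to 0.36. That interval includes differences of either sign. The difference was -0.11 without outer replicate 4, -0.18 without inner replicate 3 and -0.42 without outer replicate 2.

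ANAPC7, a TPR subunit of the vertebrate complex, lay near the detection limit. Its raw intensities were 131, 86.4, 94.0 and 36.8 on outer and 46.5, 79.2, 53.7 and 45.2 on inner replicates 1 to 4. The first 3 outer arrays were above all inner arrays, and outer replicate 4 was below them all, with a detection p of 0.309 where the other outer arrays had 0. The log2 difference was 0.67 with a 95% interval of -0.38 to 1.72. It was 1.13 without outer replicate 4, and 0.04 when the background was estimated from all probes. ANAPC7 passed the detection filter mostly through outer arrays, so that its direction is not independent of the filter. CDC27, the subunit to which the coactivator's tail binds, had 71.8, 56.9, 45.2 and 50.5 on outer and 43.2, 69.3, 41.6 and 46.9 on inner replicates 1 to 4. It was detected on outer replicate 2 alone at a detection p of 0.00282, with 0.0141 to 0.0904 on the other arrays, and the groups overlapped.

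The platform subunits overlapped between the groups. ANAPC4 had raw intensities of 621, 985, 1490 and 1633 on outer and 784, 1047, 611 and 964 on inner replicates 1 to 4. Both its highest values were on outer arrays, and outer replicate 1 lay at the level of the lowest inner array. This gave a log2 difference of 0.33 (standard error 0.42, 95% interval -0.65 to 1.30). It moved to 0.68 without outer replicate 1, to 0.10 without outer replicate 4, to 0.14 without inner replicate 3 and to 0.20 without outer replicate 3. ANAPC5, which also carries TPR repeats, had 2993, 3464, 3532 and 4585 on outer and 2504, 4770, 3337 and 3915 on inner replicates 1 to 4. Its log2 intensity averaged 11.76 ± 0.33 over the outer and 11.81 ± 0.18 over the inner arrays (SD, n = 4). The log2 difference was -0.05 with a 95% interval of -0.62 to 0.51, and its sign turned without inner replicate 4, to 0.01, or without outer replicate 1, to 0.08. It was farthest below 0 without outer replicate 4, at -0.19.

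Of the catalytic pair, the RING subunit ANAPC11 was measured by 1 of its 2 probes. The probe for transcript variant 5 had raw intensities of 541, 408, 444 and 334 on outer and 277, 682, 506 and 462 on inner replicates 1 to 4. The inner arrays held both the lowest and the highest raw value. After normalization the probe was lowest on outer replicate 4, at a log2 intensity of 8.38, with inner replicate 1 at 8.43. Its log2 difference was -0.16 with a 95% interval of -0.68 to 0.37. It was -0.28 without inner replicate 1, -0.08 without inner replicate 2, -0.07 without outer replicate 4 and -0.10 with the background estimated from all probes. The probe for transcript variant 1 ran from 23.8 to 45.9 and was detected on 0 arrays, with detection p from 0.126 to 0.864. ANAPC2, the cullin-like subunit, ran from 37.9 to 42.3 on outer and from 32.0 to 39.1 on inner arrays and was detected on 0 arrays. Its bead numbers are fractional on some arrays, and its detection p, from 0.0204 to 0.339, does not lie on the regular steps. The row may therefore average several probe types, which the labels do not state. A missed detection gives no level, so neither probe shows that its transcript was absent.

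ANAPC10, the subunit that helps to bind the destruction motifs of substrates, varied most of the 8 tested genes between arrays of one group. Its raw intensities were 1131, 601, 460 and 526 on outer and 624, 1416, 158 and 1455 on inner replicates 1 to 4. The inner arrays spanned a 9.18-fold range, with replicate 3 lowest, and the outer arrays a 2.46-fold range within it. All 8 values were detected, and the bead standard error was 2.72% to 7.18% of the intensity. The log2 SD was 1.61 over the inner and 0.52 over the outer arrays (n = 4 each), and the difference was -0.11 with a 95% interval of -1.89 to 1.68. Leaving out 1 array turned or moved it widely, from -0.89 without inner replicate 3 to 0.31 without inner replicate 4. It was also 0.16 without inner replicate 2, 0.09 without outer replicate 3 and 0.00 without inner replicate 1. It was -0.33 without outer replicate 1, -0.05 without outer replicate 4 and -0.48 with the background estimated from all probes. No direction can be given for ANAPC10 from these arrays.

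CDC20, the mitotic coactivator, had raw intensities of 4222, 3593, 4053 and 2935 on outer and 2383, 4681, 2926 and 3153 on inner replicates 1 to 4. The highest value was on an inner array, and the groups overlapped. Its log2 intensity averaged 11.80 ± 0.16 over the outer and 11.65 ± 0.19 over the inner arrays (SD, n = 4). Outer cells were 0.14 log2 above inner cells (standard error 0.21, 95% interval -0.34 to 0.62). A log2 difference of 1 in either direction lies outside that interval, which measures the spread between these arrays alone. The difference of CDC20 stayed between 0.08 and 0.23 over 16 other settings. It was 0.23 both without outer replicate 4 and without inner replicate 2, and 0.08 without inner replicate 3.

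**Figure D2:**
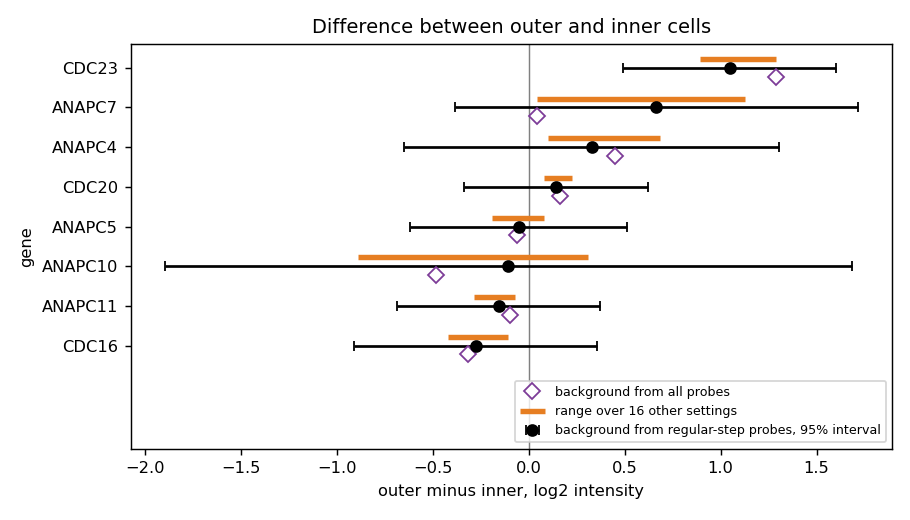
Outer minus inner log2 intensity of the 8 tested genes. Black points with bars are the fit with its 95% interval, diamonds the fit with the background estimated from all probes, and orange lines the range over 16 other settings. The interval of CDC23, 0.49 to 1.60, lies above 0, and those of the other 7 genes include 0. These intervals are not adjusted for the number of probes, and the genes were listed on this contrast. The limma adjusted p of CDC23 was 0.307.

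CDC23 was also set against the other tested genes on the same array, as the log2 value of CDC23 minus that of the other probe. Only changes of this value between arrays have meaning. Against CDC16 it averaged -1.29 ± 0.32 over the outer and -2.61 ± 0.32 over the inner arrays (SD, n = 4), a shift of 1.32 toward CDC23 in outer cells. Against CDC20 the shift was 0.90, against ANAPC5 it was 1.10 and against ANAPC11 it was 1.21. For these 4 genes every outer array lay above every inner array. Against ANAPC4, ANAPC7 and ANAPC10 the shifts were 0.72, 0.38 and 1.15, with groups that overlapped. The raw intensities without normalization gave shifts of 0.56 to 1.29 over the 7 genes, and the same 4 had groups apart. CDC23 was taken as the reference because its groups separated, so these shifts restate that separation beside genes whose groups overlapped, and support nothing further.

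**Figure D3:**
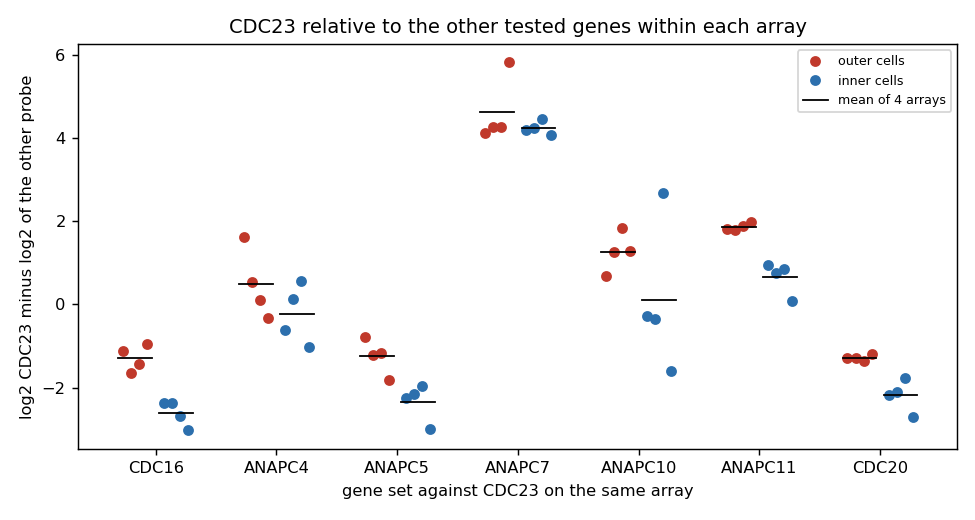
Log2 intensity of CDC23 minus that of each other tested gene on the same array, for 4 outer (red) and 4 inner (blue) arrays, with bars at the means. The outer points lie above all inner points for CDC16, ANAPC5, ANAPC11 and CDC20, and overlap for ANAPC4, ANAPC7 and ANAPC10.

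The spread between arrays of one group differed among the genes. The pooled within-group SD was 0.18 for CDC20, 0.23 for ANAPC11, 0.26 for CDC23, 0.27 for ANAPC5 and 0.33 for CDC16. It was 0.61 for ANAPC4, 0.67 for ANAPC7 and 1.20 for ANAPC10, and the median of all tested probes was 0.76. Among the 901 tested probes within 0.5 log2 of the level of CDC23 the median SD was 0.65. CDC23 thus varied less than most probes of its level, and ANAPC11, with 1023 such probes and a median of 0.99, did so too. CDC20, ANAPC4 and ANAPC7 also lay below the medians of their levels, 0.28, 0.68 and 0.74. ANAPC10, with 955 such probes and a median SD of 0.80, varied more. CDC16, at 0.33, also lay above the median of its level, 0.24, and ANAPC5 and its level were both at 0.27. Deviations from the group means, correlated over the 8 arrays for the 21 pairs of the 7 fully detected probes, ran from -0.53 to 0.77 with a median of 0.16, and 11 pairs were positive. The highest were 0.77 for ANAPC4 with ANAPC5, 0.72 for CDC16 with ANAPC11 and 0.71 for ANAPC11 with CDC20. The lowest was -0.53 for CDC23 with ANAPC4. The points share arrays and 1 amplification each, and these values are descriptions.

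**Figure D4:**
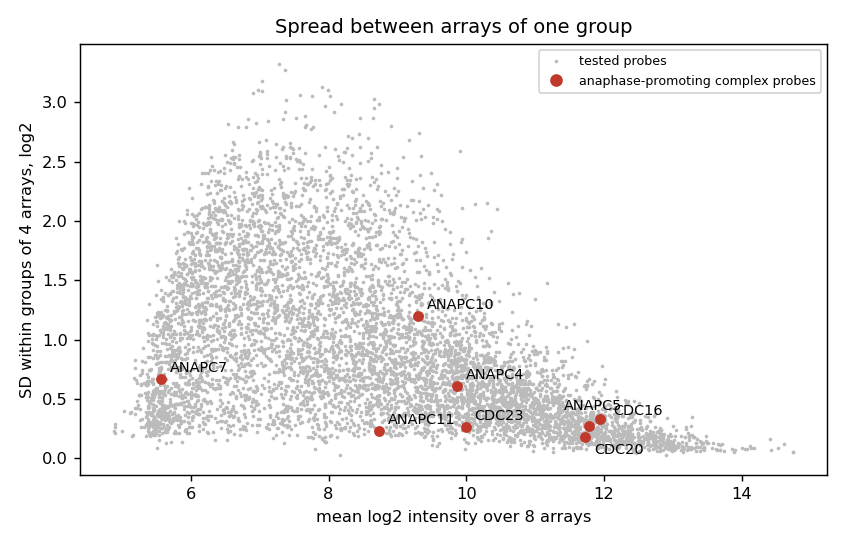
Pooled SD within the groups of 4 arrays (log2) against the mean log2 intensity over 8 arrays, for all 6698 tested probes (grey) and the 8 probes of the complex (red). ANAPC10, at 1.20, stands above the other genes of the complex, and CDC20, at 0.18, is the lowest.

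The promoters of CDC23 and CDC20 are shown because CDC23 was the gene whose groups separated, while CDC20 is the member with a textbook cell cycle promoter and its groups did not separate. Each is the 250 bases before the annotated start, from RefSeq (GRCh38.p14), written 5′ to 3′ on the strand of the gene. Capitals mark the CCAAT box (CCAAT) and the cell cycle genes homology region, CHR (TTTGAA), on either strand. The CHR and CCAAT elements are known from promoters of mitotic genes. CDC23 lies on the minus strand with its window at chr5:138213324-138213573, and CDC20 on the plus strand with its window at chr1:43358731-43358980.
CDC23: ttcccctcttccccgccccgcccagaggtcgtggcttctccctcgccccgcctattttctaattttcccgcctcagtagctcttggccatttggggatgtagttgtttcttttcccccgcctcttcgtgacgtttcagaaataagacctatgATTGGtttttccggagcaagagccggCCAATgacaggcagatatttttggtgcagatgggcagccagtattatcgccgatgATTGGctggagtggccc
CDC20: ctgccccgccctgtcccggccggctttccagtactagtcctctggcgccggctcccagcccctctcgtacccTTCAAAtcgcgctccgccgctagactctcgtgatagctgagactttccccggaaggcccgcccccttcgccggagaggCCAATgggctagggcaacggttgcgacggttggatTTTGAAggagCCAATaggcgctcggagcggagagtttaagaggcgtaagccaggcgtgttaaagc
CDC23 held 3 CCAAT boxes and no CHR, and CDC20 held 2 of each, 1 CHR 65 to 60 bases before the start and 4 bases from a CCAAT box. Over 35114 RefSeq windows of the same length, 32.0% held a CCAAT box and 13.3% a CHR. CDC23 also held the E2F motif TTTCCCGC 187 to 180 bases before its start, as did CDC16, against 1.39% of windows. All 10 genes had a window, and of the 8 with a single one, 5 held a CCAAT box, 2 a CHR (ANAPC7 and CDC20), 4 the ETS motif CCGGAAG and 6 the Sp1 box GGGCGG. The windows with these last motifs were 8.52% and 42.6% of all, and the NRF1 motif was in 1.03% of them and in none of the 10 genes. Motifs were searched on both strands, the CHR, CCAAT, E2F and ETS matches of CDC23 and CDC20 do not overlap each other, and a match is a description of letters only.

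Around the complex, lists of its other subunits, regulators and substrates were drawn up from general knowledge, and 1 probe per gene, that with the highest mean, was used. Of 5 other core subunits 4 were tested, 2 higher and 2 lower in outer cells, around a median of 0.02 log2. In limma 0 passed, against 0.0597% of all tested probes, and 0 had an unadjusted p below 0.05, against 8.05%. ANAPC1, the largest platform subunit, differed by 0.27, ANAPC13 by 0.05 and ANAPC15, which helps to release checkpoint complexes, by -0.06. CDC26, a small partner of CDC16, differed by -0.01. Over 16 other settings the last 3 changed sign, ANAPC13 between -0.09 and 0.20, ANAPC15 between -0.15 and 0.02 and CDC26 between -0.74 and 0.30. Standard errors were 0.30 for ANAPC1, 0.27 for ANAPC13, 0.21 for ANAPC15 and 0.70 for CDC26, the least precise of these. Of 5 coactivator and ubiquitin carrier genes 3 were tested, with a median of 0.08. In limma 0 passed and 0 had an unadjusted p below 0.05, against the same shares of all tested probes. UBE2S, which extends ubiquitin chains, differed by 0.49 (0.12 with the background from all probes), UBE2C, which starts them, by 0.08 (-0.03 to 0.20 over other settings) and UBE2D3 by -0.08 (-0.28 to 0.06). FZR1, the coactivator after mitosis, was detected on 0 arrays, and UBE2C and UBE2D3 each had 2 further probes that were detected on 0 arrays.

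Most of the tested genes upstream and downstream of the complex had positive differences. In limma 0 passed the adjusted threshold, against 0.0597% of all tested probes. Of the 14 checkpoint and inhibitor genes 9 were tested, 8 higher and 1 lower, where 50.6% of all tested probes were higher. Their median was 0.30 log2 against 0.01 over all tested probes, and 2 had an unadjusted p below 0.05, as did 8.05% of all tested probes. These counts include genes that passed the detection filter mainly through outer arrays. KNTC1, a kinetochore protein detected on 4 outer and 2 inner arrays, differed by 4.07 with a standard error of 0.98 (2.42 with the background from all probes). USP37, a deubiquitinase, detected on 3 outer arrays and 1 inner array, differed by 1.68 with a standard error of 1.49 (0.52 with that background). BUB1B, a checkpoint protein that binds CDC20, differed by 1.34 with a standard error of 0.41 (0.96 with the background from all probes). Its groups overlapped. MAD2L1, which also binds CDC20, differed by 0.32. KNTC1 met the filter on its outer arrays alone and USP37 mostly on them, so the direction of both is not independent of it.

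Of the 29 substrate and mitotic partner genes 24 were tested, 19 higher and 5 lower, against 50.6% higher among all tested probes. Their median was 0.46 log2 against 0.01 over all tested probes. An unadjusted p below 0.05 was found for 2 of the 24, a share near the 8.05% of all tested probes. These 2, NUSAP1 at 0.97 and CDCA5 at 0.66, were also those whose groups did not overlap, both with outer higher. Such a separation was found for 2.57% of all tested probes, or 5.26% in either direction. Both genes were named after their values were seen. By size the first were NEK2, a centrosome kinase, at 2.13 with a standard error of 1.78, MKI67 at 1.41 with 1.18 and CDCA3 at 1.33 with 0.62. With the background from all probes they were 0.61, 0.43 and 0.61. NEK2 and MKI67 were each detected on 3 outer arrays but on 1 and 2 inner arrays, so their direction is not independent of the detection filter. PTTG1, which encodes securin, averaged a log2 intensity of 11.67 ± 0.08 over the outer and 11.65 ± 0.09 over the inner arrays (SD, n = 4), a difference of 0.01. CCNB1 and CCNB2, the mitotic cyclins degraded through CDC20, differed by 0.78 and 0.31. Groups overlapped for all 3 of these genes. The lists were drawn up with earlier results of these arrays known, and the counts are no independent evidence of a direction.

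The genes that hold chromatids together and those of other cullin ligases showed no common direction. Of 6 cohesin and separase genes 5 were tested, 2 higher and 3 lower, with a median of -0.17 log2. In limma 0 passed, against 0.0597% of all tested probes, and 1, ESPL1, had an unadjusted p below 0.05, against 8.05%. ESPL1, the separase released when securin is destroyed, differed by -1.35 with a standard error of 0.41, and by -0.25 with the background from all probes. RAD21, the cohesin subunit that separase cuts, was detected on 2 outer and 2 inner arrays. It differed by -0.62 with a standard error of 1.55 (-1.43 to 0.30 over other settings). SMC3 differed by 0.53 with a standard error of 0.61 (0.07 to 0.96). Of 13 other cullin-RING genes 7 were tested, 3 higher and 4 lower, with a median of -0.07 log2. In limma 0 passed, against 0.0597% of all tested probes, and 2, CAND1 and RNF7, had an unadjusted p below 0.05, against 8.05%. CAND1, an exchange factor of cullin ligases, differed by 0.88 and RNF7, a RING partner of cullins, by -0.45, each with groups that did not overlap, as for 5.26% of all tested probes. SKP1, an adaptor, differed by 0.45, and the further probes of RNF7 and SKP1 were detected on 1 and 0 arrays.

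**Figure D5:**
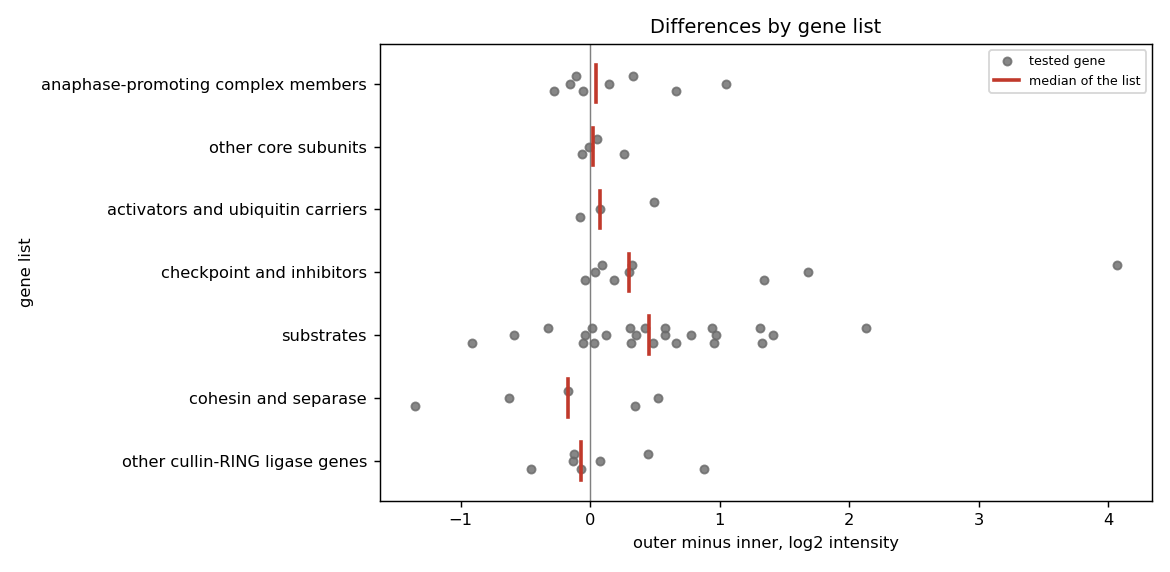
Outer minus inner log2 intensity of each tested gene (points) by list, with red bars at the medians. The median is 0.05 for the members, 0.30 for checkpoint genes and inhibitors and 0.46 for substrates, and KNTC1 at 4.07 is the rightmost point.

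Over the 8 arrays, tested probes with a high Pearson correlation with CDC23, among 6697, included GPATCH4 at 0.98, KNTC1 and ASTN2 at 0.96, and SPC25 at 0.95. Their log2 differences were 1.26, 4.07, 0.50 and 2.54. GPATCH4 is a G-patch protein, ASTN2 an astrotactin and SPC25 a kinetochore subunit. All 4 differ between the groups in the direction of CDC23, and with 8 arrays in 2 groups the correlation largely restates that difference.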

How the data were processed

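The 8 samples, each on its own Illumina HumanRef-8 v2.0 array, were grouped by their titles. What the authors deposited, per the file headers, is a mean intensity over beads for every probe, with bead numbers and standard errors. Apart from 1 probe at 0 where it lacked beads, all values lie above 0, and the columns are taken as not background-subtracted. The deposited detection p-value is a whole multiple of 1 step in 708, within 0.001 of a step, except for 1537 probes, of which 1532 have fractional bead numbers. A further set of values by the authors is a ratio, each intensity over the mean of its array, as a comparison with the intensities showed. The scanning software is not given in the sources used here.

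Intensities were corrected with normexp in limma 3.58.1 (R 4.3.3), with the background inferred from the detection p of the regular-step probes, then given an offset of 16, quantile normalized and put on the log2 scale. The regular steps gave a background SD of 6.24 to 11.7, all probes, as neqc takes them, 262 to 391. That probe was dropped. A probe was tested if its detection p was below 0.01 on 4 or more of the arrays. The test was lmFit with eBayes on group alone, adjusted by Benjamini-Hochberg at 0.05. The fit was checked on simulated arrays. The number of arrays limits the precision.

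The genes, lists, background and tests were chosen with earlier results of these data known. All 10 members are named, and from each list the 3 tested genes with the largest absolute difference; CDC26, FZR1, MAD2L1, PTTG1, CCNB1, CCNB2, NUSAP1, CDCA5 and the 4 called genes were named after their values were seen. Old symbols were updated through RefSeq gene names (GRCh38.p14). Of the 5 probes most correlated with CDC23, 1 is not reported here. Replicate numbers were not used to pair the samples in the main fit. Alternatives were other backgrounds, scalings, filters and variance models, a block by replicate number, and leaving out each array.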

Additional observations from a re-analysis of the deposited data

Results flagged for a closer look

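In 22 groups of 4 values, 11 probes in 2 groups, 2 had 1 array standing apart from its group. By chance this happens in about 1 of 20 groups. Both were outer replicate 4. ANAPC7 was at a log2 intensity of 4.55 there, with the other outer arrays at 6.24 to 6.48. CDC20 was at 11.55 there, with the others at 11.87 to 11.89. Their values without that array stand beside each gene above.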

How the results depend on the processing

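Under 17 other settings, averaging the probes of a gene among them, none of the 8 tested genes passed the adjusted threshold, with a lowest adjusted p of 0.181, for CDC23 with the background from all probes. All 136 values of single genes stayed within 1 pooled SD of the reported one, and 6 changed sign, for ANAPC5 and ANAPC10. The median log2 difference of the 8 genes, 0.05, was -0.01 with the background from all probes and -0.01 to 0.23 when 1 array was left out. The 61 detections of the 11 probes on 8 arrays became 70 with a detection p below 0.05. Over all probes, limma called 4, against 1 with the background from all probes, 2 with an offset of 50 and 2 with no detection filter. Leaving out 1 array gave 1 to 6 calls, with 1 without inner replicate 2, 2 without outer replicate 1 and 6 without inner replicate 3. With the replicate number as a block limma called 0 probes (524 at an unadjusted p below 0.05). Deviations of same-numbered arrays correlated at -0.014 to 0.039, and those of differently numbered arrays at -0.034 to 0.018. The highest values were those of same-numbered replicates 1, 2 and 3, all close to 0, so they do not settle whether the numbers pair the arrays. The block adjusted p of CDC23 in limma was 0.607. The cause of these changes was not tested. Probes near background, such as ANAPC7, are limited by their low signal.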
